A study of Mus musculus with 16 samples.

Results

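The clustered protocadherin genes are a family of cell-surface adhesion genes that lie side by side on mouse chromosome 18. All intervals on that chromosome whose name starts with Pcdha, Pcdhb or Pcdhg were taken, which gave 58 of the 37255 gene intervals in the deposited count table. There were 14 alpha genes (Pcdha1 to Pcdha12, Pcdhac1 and Pcdhac2), 22 beta genes and 22 gamma genes. The gamma genes divide into 12 of type A, 7 of type B and 3 of type C, and the 2 last alpha genes are also of type C. Accessibility was measured by ATAC-seq, in which a transposase cuts and tags open DNA, in retinal ganglion cells that had been isolated from eyes of female mice by fluorescence-activated sorting. These cells are the output neurons of the retina, and the study followed them through experimental autoimmune encephalomyelitis (EAE), an induced inflammatory demyelinating disease. The groups were naive controls without EAE (n = 5), presymptomatic EAE (n = 4), EAE at onset (n = 3) and EAE at peak (n = 4), with induction at 7 to 8 weeks of age. Each library came from about 15000 to 50000 cells and was amplified for 10 PCR cycles, and the labels give no strain, genotype, age of the naive mice or link from a library to an animal. The p-values below therefore rest on library-to-library spread, which may be partly technical.

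Clustered protocadherins give neurons a surface identity. Each neuron uses a small selection of the many genes, the proteins bind their own kind on neighbouring cells, and in mice this lets branches of 1 neuron avoid each other. In the alpha and gamma clusters every gene has its own promoter and its own large first exon, and all genes of a cluster splice to the same constant exons at the far end. The beta genes have no constant exons. Promoters of the alternate genes are chosen in a random manner in each cell, with DNA methylation, CTCF and cohesin taking part, whereas the C-type genes are used more uniformly. In the mouse retina the gamma genes are needed for survival of ganglion cells and interneurons, and for self-avoidance of starburst amacrine cells.

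The counting of this table decides what can be read from it. For genes longer than 2000 bp, as all 58 are, the counted length was the gene's span less 2000 bp. This was read as the gene body without the first and last 1000 bp, so that a gene's own start lay outside its interval. The 14 alpha genes shared their ends within 4 bp and the 22 gamma genes within 10 bp. Each alpha or gamma interval therefore contained every interval further downstream in its cluster. Pcdha1, from 36930285 to 37187657, was counted over 255 kb and held all the reads of the other 13 alpha genes. Pcdhga1, from 37661945 to 37841870, was counted over 178 kb in the same way for the other 21 gamma genes. In none of 208 alpha and 336 gamma comparisons of neighbours did the shorter interval hold more reads than the longer one. Members of the alpha and gamma clusters are thus not separate measurements. Subtracting each interval from the one before it gave separate stretches, 14 for alpha and 22 for gamma, each running from inside one gene past the start of the next. The beta genes were single-exon genes with spans of 2319 to 5271 bp, which left windows of 319 to 3271 bp without their starts. The 476 kb between the alpha genes and Pcdhga1, with all beta genes and their starts inside, was obtained by subtraction from a read-through transcript that spans the region. Coordinates are as deposited and their genome build is not given in the sources used here.

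Nuclear reads counted in intervals ranged from 1.58 to 15.1 M (megareads) per library. The shallowest were the peak libraries, with 1.58 to 3.70 M, and presymptomatic replicate 4, with 2.23 M. Mitochondrial intervals took 8.36% to 64.7% of counted reads. Low counts were mostly even numbers, 69.7% to 76.5% of those from 1 to 20, so both mates of a read pair appear to have been counted and a read is not an independent molecule. The cell-type label was read against marker genes. Intervals of ganglion cell markers had a median of 1.02 reads per kb of interval and per M of nuclear reads, against 1.21 for rod and 1.23 for amacrine and horizontal cell markers, and 0.556 for microglia and 0.423 for lymphocyte markers. Gene-body reads thus did not place ganglion cell markers above those of rods or amacrine cells. Accessibility is also a mean over all sorted cells, so fewer cells with an open gene and less opening per cell cannot be told apart.

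Along both the alpha and the gamma cluster the alternate genes lay in DNA with few reads. Read density was highest around the C-type genes in the gamma cluster, and past the start of Pcdhac2 in the alpha cluster. Density is given as reads per kb of stretch and per M of nuclear reads, averaged over the 16 libraries. The 11 stretches between alternate alpha genes had densities of 0.131 to 0.413, with a median of 0.252. The 18 stretches between alternate gamma genes had 0.210 to 0.785, with a median of 0.352. All gene intervals of at least 2000 bp had a median of 0.630, and 10% of them lay below 0.327. Both medians therefore sat in the lower part of the genome's gene bodies. They also lay below the median of 0.525 for olfactory and vomeronasal receptor genes with intervals of at least 2000 bp (n = 276). The gamma array was denser than the alpha array in 16 of 16 libraries.

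**Figure D1:**
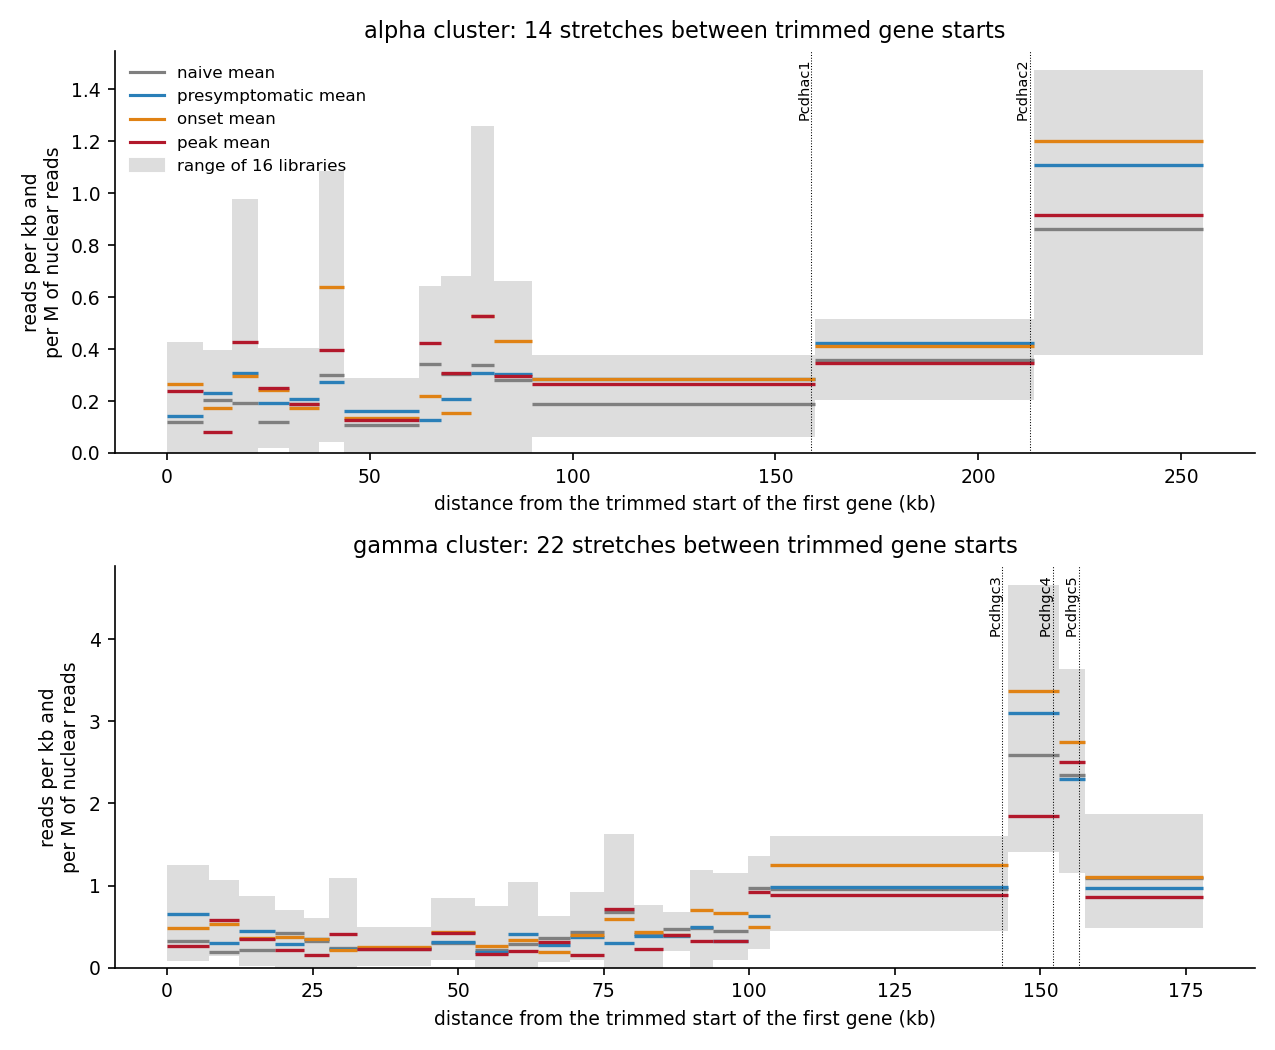
Read density of each stretch (y axis, reads per kb and per M of nuclear reads) against distance along the alpha and gamma clusters (x axis, kb from the trimmed start of the first gene). Coloured lines are stage means, grey boxes span the 16 libraries, and dotted lines mark the starts of the C-type genes. The Pcdhgc3 to Pcdhgc4 stretch averaged 2.68 and the array stretches of the gamma cluster at most 0.785.

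The 2 densest stretches belonged to the gamma C-type genes. The stretch from inside Pcdhgc3 to just past the start of Pcdhgc4 is 8.67 kb long and had a density of 2.68, which exceeded 97.8% of gene intervals. Those intervals leave out their own gene's start, whereas this stretch holds the start of Pcdhgc4, so the 2 are not fully alike. Among gene intervals of 4 to 20 kb, 95% lay below 2.07. Pcdhgc3 is linked to dendrite branching of mouse cortical neurons, and Pcdhgc4 to the survival of mouse neurons. The next stretch, 4.47 kb from Pcdhgc4 to Pcdhgc5, had 2.45. Of the 36 alpha and gamma stretches these 2 ranked first and second in 15 of 16 libraries, with Pcdhgc3 to Pcdhgc4 first in 9 libraries and Pcdhgc4 to Pcdhgc5 first in 7. The gamma C-type stretches were 3.84 to 11.1 times as dense as the gamma array within a library, with a median of 7.32. They were also 1.30 to 3.84 times as dense as the 20.3 kb that follow Pcdhgc5 and include the constant exons. Those 20.3 kb hold no start of a cluster gene, whereas both C-type stretches hold one. Array stretches of the gamma cluster were of like length, 3.78 to 12.7 kb, and also held a gene start each.

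The part of the alpha cluster that follows Pcdhac2, a C-type gene needed for the even spread of serotonin axons in mice, was its densest part. These 41.7 kb reached 1.00, which exceeded 79.6% of gene intervals, and in each library they were 1.87 to 7.91 times as dense as the alpha array. The 69.9 kb between Pcdha12 and Pcdhac1 had 0.250 and the 53.8 kb between Pcdhac1 and Pcdhac2 had 0.382, both near the array. These stretches hold the starts of the C-type genes Pcdhac1 and Pcdhac2. In the gamma cluster the 40.8 kb stretch from Pcdhga12 to Pcdhgc3, which includes the start of Pcdhgc3, also reached 1.00.

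Within the arrays, density showed a weak upward order towards the constant exons. The rank correlation of density with order was 0.555 over 11 alpha and 0.484 over 18 gamma stretches. It was positive in 11 of 16 libraries for alpha and in 12 of 16 for gamma. Stretches that held the start of a type A gene had a median of 0.364 (n = 11, 0.239 to 0.785), and those that held the start of a type B gene 0.339 (n = 7, 0.210 to 0.577), so the types overlapped across most of their range. Stretches share libraries and differ in length, with a rank correlation of density and length of -0.555 for alpha and -0.230 for gamma. Mean counts of array stretches were 7.31 to 20.9 reads per library, so single stretches are imprecise.

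The nested intervals carry this profile into the deposited values. Density per interval climbed from 0.395 for Pcdha1 through 0.482 for Pcdha12 and 0.652 for Pcdhac1 to 1.00 for Pcdhac2. Among gamma genes it climbed from 0.750 for Pcdhga1 to 1.29 for Pcdhga12 and 1.63 for Pcdhgc3, then dropped to 1.27 for Pcdhgc4 and 1.01 for Pcdhgc5. Each interval further upstream adds more of the sparse array to the same dense end.

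The beta windows were close to empty. The 22 windows together held 834 reads in 16 libraries, 167 of the 352 values (47.4%) were 0, and the highest was 17 reads. A count of 0 allows up to 3 read pairs by counting error alone, or 6 reads where both mates are counted. Mean counts ran from 0.562 reads for Pcdhb1 to 4.88 for Pcdhb18, and no beta gene had a read in every library. The count followed the length of the window, with a rank correlation of 0.911 over the 22 genes. The median density of the beta windows was 0.293, against 0.600 for all nuclear intervals of the same range of length. The stretch that holds the beta genes had a similar density of 0.316, with the gene starts included, and lay below the end of the alpha cluster in 16 of 16 libraries. How the authors treated reads that match several near-identical genes is not given in the sources used here, and beta genes resemble each other closely, so single beta values are uncertain.

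**Figure D2:**
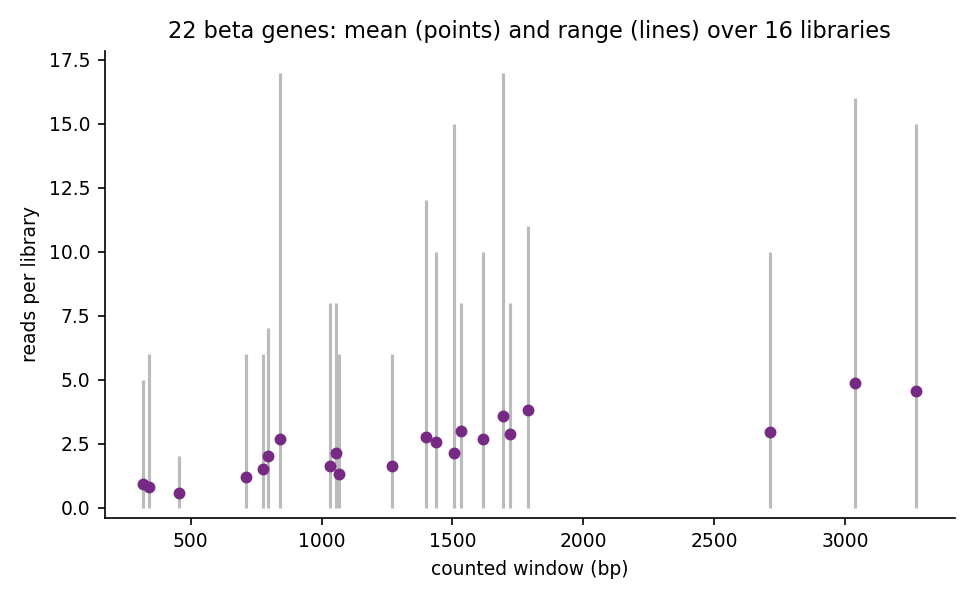
Reads per library (y axis) against the length of the counted window in bp (x axis) for the 22 beta genes. Points are means over the 16 libraries and lines run from the lowest to the highest library. Means stay between 0.562 and 4.88 reads.

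The study's main question is whether accessibility changed as disease developed. No clustered protocadherin passed the test at any stage. All 14 alpha and 22 gamma genes had enough reads to be tested, but only Pcdhb16 and Pcdhb18 of the beta genes. By edgeR's quasi-likelihood test with Benjamini-Hochberg adjustment over 29902 genes, 0 of the 38 tested members were called in presymptomatic, onset or peak libraries against naive ones, and 0 in the 3 comparisons between stages. Among all genes 0.0% were called in each of these 6 comparisons. Members at an unadjusted p under 0.05 numbered 1 in presymptomatic against naive, where 1.16% of all genes were, and 0 in onset against naive (4.95%) and peak against naive (3.61%). The 1 member was Pcdhb18, which passed the filter on low counts through presymptomatic and peak libraries only. Members at such a p numbered 0 in onset against presymptomatic (4.13%), peak against onset (6.65%) and peak against presymptomatic (3.41%). DESeq2 and limma-trend also called 0 members in each of the 6 comparisons. A test over the 3 EAE stages together called 0 members, with 0 at an unadjusted p under 0.05, where 3.16% of all genes were.

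For the alpha cluster as a whole, read from Pcdha1, the values were level across stages within their spread. Pcdha1 had 53.4, 57.5, 31.3, 30.6 and 58.6 TMM-scaled counts-per-million (CPM) in naive libraries and 48.5, 48.7, 55.3 and 71.7 CPM in presymptomatic libraries. It had 71.1, 50.9 and 55.3 CPM at onset and 57.5, 47.2, 36.9 and 59.4 CPM at peak. The groups overlap, and the lowest values belong to naive replicates 3 and 4. The log2 fold change against naive was 0.27 ± 0.23 (SE) in presymptomatic, 0.35 ± 0.25 in onset and 0.12 ± 0.23 in peak libraries, with 95% intervals of -0.20 to 0.75, -0.16 to 0.86 and -0.36 to 0.60. The 14 nested alpha members repeat this value, with medians of 0.27, 0.34 and 0.08 in the same order of stages, where the medians of all genes were -0.06, -0.01 and -0.03. Fold changes above 0 were found for 14, 14 and 13 of the 14 members, against 41.6%, 48.6% and 47.1% of all genes, but the members share their reads. Over separate stretches 10 of 14 were above 0 in each of the 3 comparisons, and 0 were called.

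The gamma cluster as a whole, read from Pcdhga1, spread most among naive libraries. Pcdhga1 had 67.2, 76.2, 42.0, 53.9 and 113 CPM in naive libraries and 73.3, 58.9, 78.3 and 68.2 CPM in presymptomatic libraries. It had 87.4, 73.3 and 78.4 CPM at onset and 66.3, 61.9, 39.8 and 66.8 CPM at peak. The naive group covers the range of all 3 EAE groups except the lowest peak library. The log2 fold change against naive was -0.02 ± 0.24 (SE) in presymptomatic, 0.18 ± 0.25 in onset and -0.27 ± 0.24 in peak libraries, with 95% intervals of -0.50 to 0.46, -0.35 to 0.70 and -0.75 to 0.22. Median fold changes over the 22 nested members were -0.06, 0.16 and -0.30 (log2), with 1, 21 and 0 members above 0. Without naive replicate 5, the highest naive library, these medians were 0.20, 0.41 and -0.05. Over separate stretches the medians were -0.09, 0.06 and -0.28, with 9, 13 and 6 of 22 above 0 and 0 called.

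**Figure D3:**
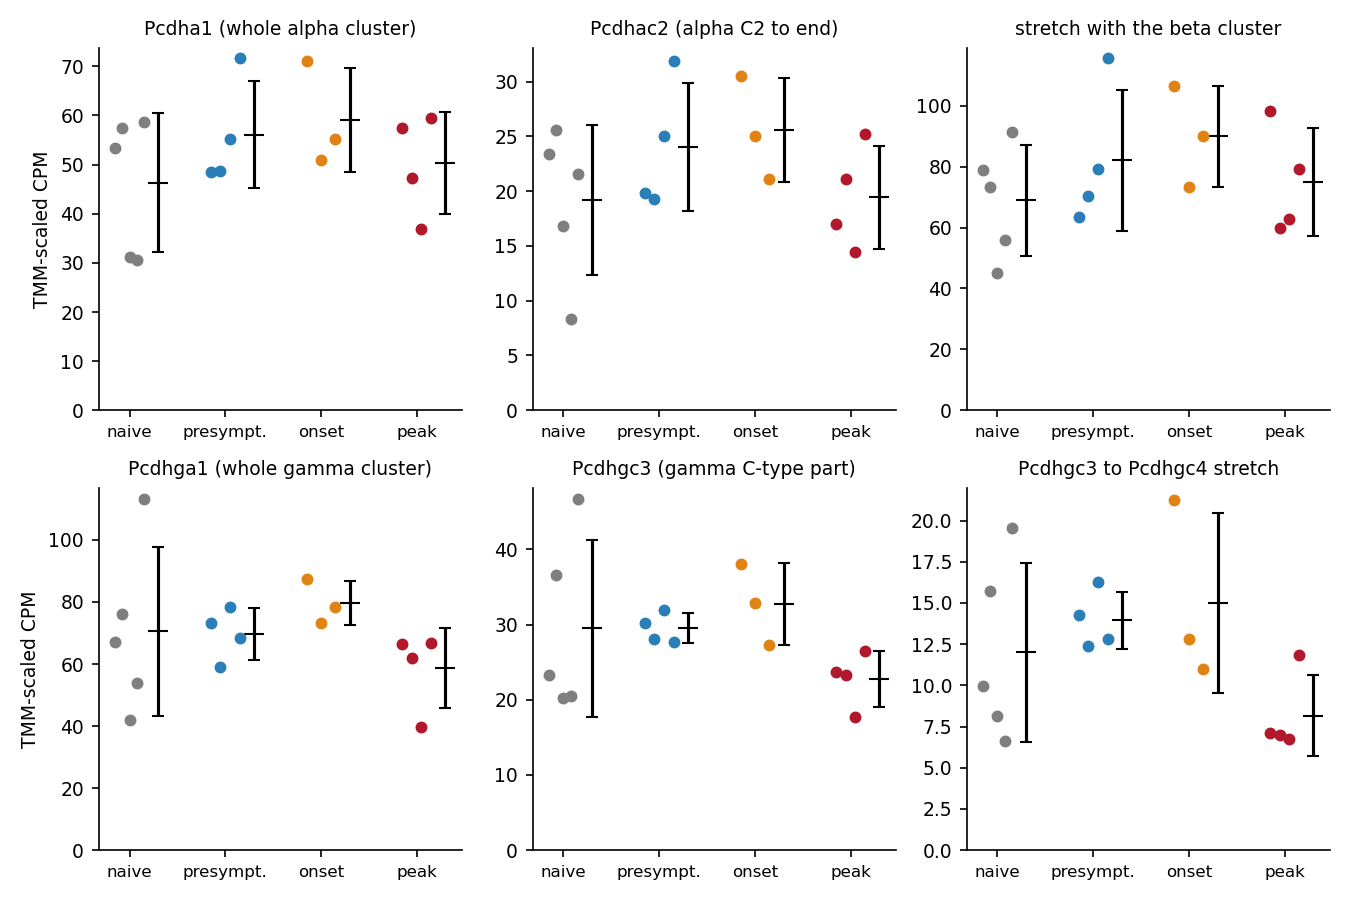
TMM-scaled CPM (y axis) by stage (x axis) for 4 deposited intervals and 2 stretches obtained by subtraction. Points are libraries and black marks are means with SD (n = 5, 4, 3 and 4 from naive to peak). The stages overlap in the alpha panels, and the 4 peak libraries of Pcdhga1 all sit below the 3 onset libraries.

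**Figure D4:**
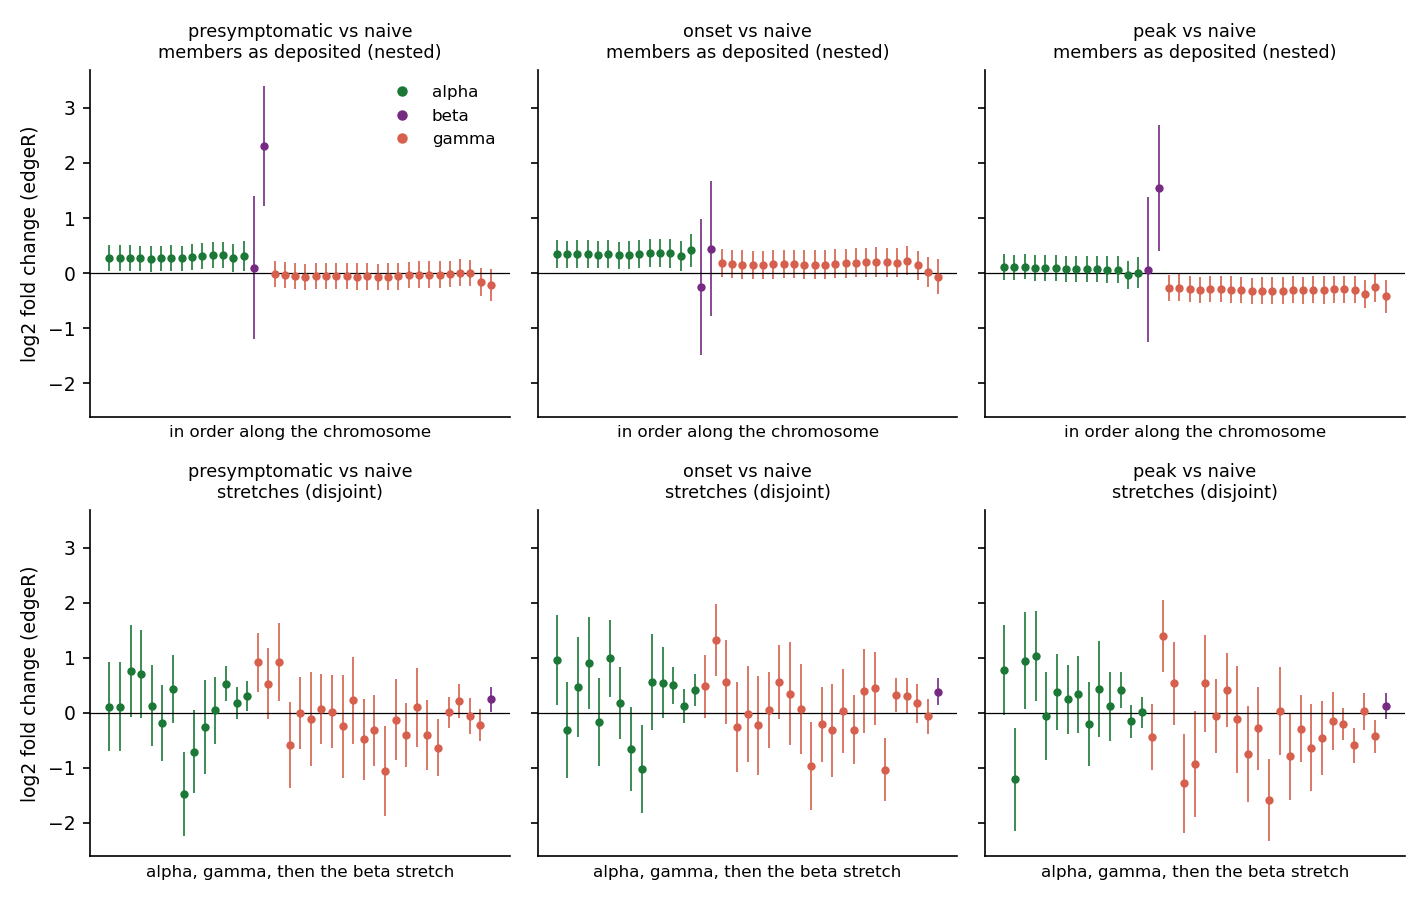
Log2 fold change against naive (y axis) with its standard error for the 38 tested members as deposited (upper panels) and for the 37 separate stretches (lower panels), in order along the chromosome except the beta stretch, which stands last. The nested alpha and gamma members repeat nearly 1 value per cluster, and the separate stretches scatter on both sides of 0.

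The C-type genes gave no call either. Pcdhac2 had 23.4, 25.5, 16.9, 8.33 and 21.6 CPM in naive libraries, and means of 24.0 ± 5.87 CPM in presymptomatic, 25.6 ± 4.70 CPM in onset and 19.4 ± 4.71 CPM in peak libraries (SD). Pcdhac1 averaged 29.5 ± 9.84 CPM in naive, 35.8 ± 7.36 CPM in presymptomatic, 36.8 ± 6.37 CPM in onset and 28.8 ± 7.11 CPM in peak libraries (SD). Pcdhgc3 had 23.7, 23.2, 17.7 and 26.4 CPM in peak libraries, against 23.3, 36.6, 20.2, 20.6 and 46.7 CPM in naive libraries. Its peak values lie inside the naive range except for the lowest one, at a log2 fold change of -0.38 ± 0.25 (SE). Pcdhgc4 differed from naive by -0.17 ± 0.25, 0.02 ± 0.27 and -0.26 ± 0.26 and Pcdhgc5 by -0.22 ± 0.29, -0.06 ± 0.32 and -0.43 ± 0.30 on the log2 scale, from presymptomatic to peak.

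The division of reads within a cluster also held its level within the spread. The Pcdhac2 interval took 42.5% ± 2.76 of Pcdha1 reads in presymptomatic (SD, n = 4), 43.5% ± 5.50 in onset (n = 3), 39.0% ± 6.67 in peak (n = 4) and 41.2% ± 9.91 in naive libraries (n = 5). The Pcdhgc3 interval took 42.6% ± 3.39 of Pcdhga1 reads in presymptomatic, 41.0% ± 5.50 in onset, 39.3% ± 3.73 in peak and 42.1% ± 5.98 in naive libraries. Two-sided exact permutation tests against naive gave p-values of 0.436 to 0.889 over these 6 comparisons, each 0.889 after Benjamini-Hochberg adjustment over the 6.

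The beta genes can be followed through 2 single genes and their stretch. Pcdhb18 had 2, 4, 16 and 12 reads in presymptomatic libraries, against 0, 12, 0, 0 and 5 reads in naive libraries. The groups overlap, and 4 of 4 presymptomatic libraries held a read, against 2 of 5 naive ones. Its log2 fold change was 2.31 ± 1.09 (SE) in presymptomatic against naive libraries, with an unadjusted p of 0.0422 and an adjusted p of 1.00 by edgeR's quasi-likelihood test with Benjamini-Hochberg adjustment. It was 0.44 ± 1.22 in onset and 1.54 ± 1.14 in peak libraries. Pcdhb18 passed the filter on low counts through presymptomatic replicates 3 and 4 and peak replicate 1, and no naive library met it. Its p-value therefore cannot serve as support for a difference, and medians over the 2 tested beta genes carry the same selection. Pcdhb16 differed from naive by 0.09 ± 1.30, -0.25 ± 1.23 and 0.06 ± 1.32 on the log2 scale, from presymptomatic to peak. Pcdhb3, the third beta gene by mean CPM, was below the filter on low counts, with 0 to 11 reads per library.

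The stretch with the whole beta cluster gave a steadier value than any of its genes. It held 63.3, 70.2, 79.1 and 115 CPM in presymptomatic, 106, 73.2 and 90.2 CPM in onset and 98.2, 59.9, 62.6 and 79.3 CPM in peak libraries, against 78.7, 73.4, 45.2, 55.9 and 91.2 CPM in naive libraries. The groups overlap. The log2 fold change against naive was 0.25 ± 0.23 (SE) in presymptomatic, 0.39 ± 0.25 in onset and 0.12 ± 0.23 in peak libraries, and none was called. The beta genes take 6.38% of this stretch's length as counted windows and 5.42% of its reads. From the first to the last beta gene is 256 kb of the 476 kb. These values therefore describe mostly the DNA between, before and after the genes, and part of it lies outside the beta cluster.

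In presymptomatic, onset and peak against naive libraries 0 of 58 members had groups without overlap, where 0.846%, 2.53% and 0.977% of all genes did. Only Pcdhgc4 did so in onset against presymptomatic libraries (10.1% of all genes) and only Pcdhgc3 in peak against presymptomatic libraries (2.72%). In peak against onset libraries, where 6.75% of all genes separated in either direction, the gamma cluster did. At peak, 20 of 22 gamma members had all 4 libraries below all 3 onset libraries, where 4.18% of all genes did, and these 20 share most of their reads. Scaled per M of nuclear reads in place of TMM, 13 of 22 did so, where 3.73% of all genes did. No alpha member did under either scaling. Of 37 separate stretches 2 had peak libraries below onset libraries without overlap, Pcdhgb5 to Pcdhga9 and Pcdhga12 to Pcdhgc3, and 1 did so in peak against presymptomatic libraries, Pcdhgc3 to Pcdhgc4. In onset against naive libraries 2 stretches were lower without overlap, Pcdha9 to Pcdha10 at -1.02 ± 0.81 (SE) and Pcdhgb8 to Pcdhga12 at -1.03 ± 0.57 on the log2 scale, and in the other 3 comparisons 0 stretches separated. Pcdhga1 averaged 58.7 ± 12.8 CPM in peak and 79.7 ± 7.15 CPM in onset libraries (SD), a log2 fold change of -0.44 ± 0.27 (SE) with an adjusted p of 0.794 by edgeR's quasi-likelihood test with Benjamini-Hochberg adjustment. With the share of olfactory and vomeronasal receptor reads as a covariate the value became -0.17. Other measures moved with this contrast. Peak libraries held 1.58 to 3.70 M nuclear reads against 4.18 to 15.0 M at onset, and their receptor share was 0.236% to 0.487% against 0.202% to 0.278%. Rod markers, summed over 17 genes of which none was at 0 in all libraries of a stage, reached 246 to 437 CPM at peak and 435 to 775 CPM at onset. Summed ganglion cell markers had 518 to 744 CPM at peak and 395 to 583 CPM at onset. Amacrine and horizontal cell markers had 274 to 342 CPM and 280 to 424 CPM in the same order. The part of depth, receptor share and DNA of these cell types in the Pcdhga1 difference was not tested beyond that covariate.

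Among the separate stretches, Pcdhgc3 to Pcdhgc4 had the smallest p in peak against onset libraries. It held 7.09, 6.98, 6.75 and 11.8 CPM in peak, 21.2, 12.8 and 11.0 CPM in onset and 14.3, 12.4, 16.3 and 12.8 CPM in presymptomatic libraries. All 4 peak libraries lie below the presymptomatic ones, and 1 peak library overlaps the onset group. The log2 fold change was -0.89 ± 0.36 (SE) in peak against onset, with an unadjusted p of 0.0179 and an adjusted p of 0.737, and -0.80 ± 0.34 in peak against presymptomatic libraries, with p-values of 0.0240 and 1.00. The peak against onset value was -0.58 with receptor share as a covariate (unadjusted p of 0.0643) and -0.58 without onset replicate 1 (unadjusted p of 0.152). In peak against presymptomatic libraries the unadjusted p was 0.0558 to 0.0619 without presymptomatic replicate 3 or without peak replicate 1, 2 or 3. With receptor share as a covariate the peak against presymptomatic value was -0.94 (unadjusted p of 0.0016 and adjusted p of 0.77 by edgeR's quasi-likelihood test). Leaving out single libraries gave -1.10 to -0.58 in peak against onset and -1.01 to -0.72 in peak against presymptomatic libraries. Against naive libraries, which had 9.94, 15.7, 8.12, 6.64 and 19.5 CPM, the peak value was -0.59 ± 0.32. The stretch was picked among 37 stretches, of which 1 had an unadjusted p under 0.05 in peak against onset (6.68% of all genes and stretches tested) and 3 in peak against presymptomatic libraries (3.41%). The neighbouring Pcdhgc4 to Pcdhgc5 stretch held 6.52, 5.27, 5.46 and 5.60 CPM in peak and 5.02, 7.95 and 5.85 CPM in onset libraries, which overlap throughout.

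Single array stretches varied by more than the clusters but on few reads. The Pcdhga2 to Pcdhga3 stretch had log2 fold changes of 1.32 ± 0.66 (SE) in onset and 1.39 ± 0.65 in peak against naive libraries, with naive values of 0.394 to 0.823 CPM. The Pcdhgb5 to Pcdhga9 stretch was at -1.58 ± 0.74 in peak against naive libraries. In presymptomatic against naive libraries the smallest p-values belonged to Pcdha8 to Pcdha9 at -1.47 ± 0.76 and to Pcdhga1 to Pcdhga2 at 0.92 ± 0.54. None was called by edgeR's quasi-likelihood test with Benjamini-Hochberg adjustment. Counts at an unadjusted p under 0.05 were 0, 0 and 2 of 37 stretches from presymptomatic to peak, beside 1.15%, 4.94% and 3.62% of all genes and stretches tested. In onset against presymptomatic libraries 0 of 37 stretches had such a p, beside 4.14%.

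Across the 16 libraries the alpha and gamma clusters went up and down together, and against the share of reads in receptor genes. Pcdha1 and Pcdhga1 had a Pearson correlation of 0.754 and a Spearman correlation of 0.653 on log2 CPM, with permutation p-values of 0.00110 and 0.00745 (adjusted over 3 relations 0.00110 and 0.0112). Pearson's r was 0.670 without naive replicates 3 and 4, the libraries farthest from the median on the first measure, and 0.799 within stages. The share of nuclear reads in 1450 olfactory and vomeronasal receptor intervals ran from 0.192% to 0.562%, with the 3 highest in naive replicates 3 and 4 and peak replicate 3. Against this share Pcdhga1 had a Pearson correlation of -0.813 and a Spearman correlation of -0.738, with permutation p-values of 0.00011 and 0.00149 (adjusted 0.00033 and 0.00447). The r was -0.731 without naive replicates 3 and 4 and -0.874 within stages. Pcdha1 had -0.758 and -0.591, with permutation p-values of 0.00069 and 0.0174 (adjusted 0.00103 and 0.0174), an r of -0.533 without those 2 libraries and -0.844 within stages. All 3 measures are parts of the same library totals.

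**Figure D5:**
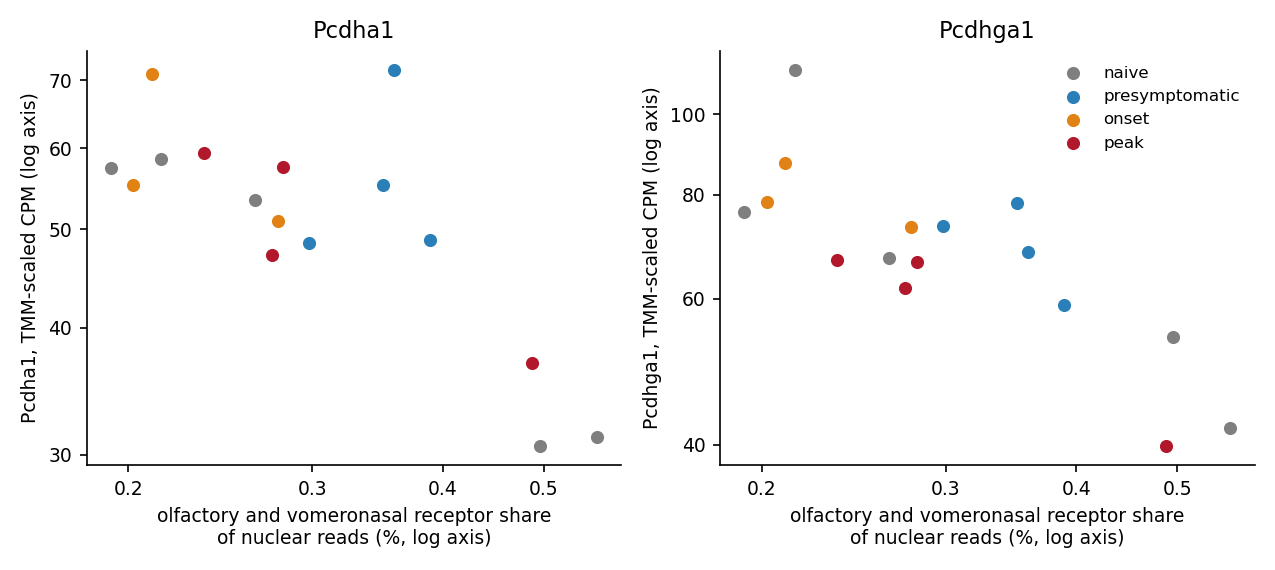
TMM-scaled CPM of Pcdha1 and Pcdhga1 (y axes, log scale) against the share of nuclear reads in olfactory and vomeronasal receptor intervals (x axis, percent, log scale), 1 point per library, coloured by stage. The 3 libraries of highest receptor share, 2 naive and 1 peak, hold low values of both genes.

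Genes that act on the clusters, or with their proteins, gave no call either. Of 17 genes of CTCF, cohesin and their partners 0 were called in any comparison with naive, and median log2 fold changes were -0.13, 0.09 and -0.07 from presymptomatic to peak. Ctcf, which binds protocadherin promoters and enhancers, differed by -0.03 ± 0.34, 0.15 ± 0.36 and 0.22 ± 0.34 (SE), and the cohesin subunit Rad21 by 0.11 ± 0.23, 0.17 ± 0.25 and -0.14 ± 0.23. Of 22 genes of DNA methylation and heterochromatin 0 were called, with medians of -0.05, 0.09 and -0.12. Smchd1, a repressor of the clusters in mice, differed by -0.08 ± 0.25, -0.11 ± 0.27 and 0.05 ± 0.25. Dnmt3b, which methylates their promoters in mouse embryos, differed by -0.56 ± 0.28, -0.37 ± 0.30 and -0.46 ± 0.28.

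Among 26 genes for adhesion and signalling partners of the proteins 0 were called, with medians of -0.07, 0.09 and -0.0024. The 12 protocadherins encoded outside the clusters had medians of -0.08, -0.11 and -0.19 and 0 calls. Pcdh11x, an X-linked protocadherin, had the smallest p of that list, with a log2 fold change of -1.10 ± 0.40 in onset against naive libraries. Of 21 neighbouring genes on the same chromosome 13 could be tested and 0 were called, with medians of -0.20, 0.09 and -0.12. Beside these comparisons, rod markers had fold changes above 0 for 16 of 16 tested genes in onset against naive libraries, where 48.6% of all genes were above 0. Their median was 0.92, and 11 had an unadjusted p under 0.05, where 4.95% of all genes did, with 0 called. Their sum was 435 to 775 CPM in onset and 275 to 406 CPM in naive libraries, and its part in the onset values of the protocadherins was not tested.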

How the data were processed

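ATAC-seq libraries of sorted retinal ganglion cells were grouped by the stage in their labels. The counts deposited by the authors are whole reads per gene interval without scaling, and the RPKM values deposited by the authors divide them by a library total and an interval length. The RPKM values return the gene's span less 2000 bp as that length, with a largest relative deviation of 4.4e-14. A length does not show where the 2000 bp were left out, and 1000 bp at each end was assumed. Starts were therefore taken as not counted, although windows at starts had been foreseen. Per the submitters' processing notes, cutadapt, HISAT2 and HTSeq were used, without versions. Genome build, annotation, duplicate handling and multiple alignments are not given in the sources used here. All 58 names matched a RefSeq gene table of assembly GRCm38.p6, with equal starts for 42 and equal ends for 51, and Pcdhgb8 is a transcribed pseudogene there. No per-sample column was left unmapped.

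Total reads implied by the RPKM values were 7.42 to 65.2 M (megareads) per library, and 3.71 to 30.9 M lay in intervals. Counting error alone underlies the limits given for counts of 0. Counts were filtered with filterByExpr (minimum count 10, minimum total 15), scaled by TMM and fitted with edgeR 4.0.16 in R 4.3.3, with 1 mean per stage over all 16 libraries, a threshold of 0.05 after Benjamini-Hochberg adjustment over all genes tested, and standard errors from the F statistic. The fit was tested on simulated data. Stretches replaced the nested intervals in a second fit of 29903 intervals. Subtraction was checked on 2 pairs of read-through intervals, which were equal in 15 of 16 libraries and otherwise differed by 1 read. Shares were compared by exact permutation and relations by 100000 permutations with scipy 1.17.1. Alternatives used DESeq2 1.42.0, limma 3.58.1, other scalings and filters, and left-out libraries.

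Members and gene lists were chosen with earlier results of these data known. Named were the longest member of each nested cluster, the C-type genes, the beta genes of highest mean CPM, extremes of count and length, the smallest p-values per comparison, and the densest stretches. The beta stretch, the shares, the omission of the 3 libraries of highest receptor share and the peak against onset values were added after seeing the data.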

Additional observations from a re-analysis of the deposited data

Results flagged for a closer look

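Among 48 groups of 4 or 5 libraries over 16 measures, 3 had 1 library far from the others, where chance gives about 1 in 20. In the Pcdhgc3 to Pcdhgc4 stretch peak replicate 4 stood at 11.8 CPM, and the other 3 peak libraries lay between 6.75 and 7.09 CPM. In the summed beta windows presymptomatic replicate 4 stood at 0.576 reads per kb and per M (megareads) of nuclear reads, and the other 3 presymptomatic libraries lay between 0.210 and 0.261. In the share of Pcdhga1 reads that lie in the Pcdhgc3 interval presymptomatic replicate 2 stood at 47.7%, and the other 3 presymptomatic libraries lay between 40.6% and 41.3%.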

How the results depend on the processing

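Over 73 results and 28 alternative settings, 0 members and 0 stretches were called under any setting, including those that called up to 5 other genes. Array stretches and beta genes rest on few reads. In the fit to total counts the median log2 fold change of all genes was 0.26 in presymptomatic and 0.60 in onset against naive libraries. With TMM these medians were -0.06 and -0.01. Onset medians with total counts were 0.90 for alpha, 0.80 for beta and 0.74 for gamma members. Of the 38 members 33 had an unadjusted p under 0.05 (17.2% of all genes). In peak against onset libraries 32 of 38 did (15.8%). These members share reads, and only 5 of 37 separate stretches had such a p in each of these comparisons. With total counts Pcdhga1 stood at 0.24 in presymptomatic libraries, Pcdhgc5 at 0.072 in presymptomatic and 0.50 in onset libraries, and Pcdhb16 at 0.54 in onset libraries. With receptor share as a covariate, the presymptomatic beta median was 2.55, Pcdhga1 stood at 0.14 in presymptomatic and -0.079 in onset libraries, Pcdhga12 at -0.022 in onset libraries and Pcdha1 at 0.023 in peak against onset libraries. That fit had 14 members at an unadjusted p under 0.05 in presymptomatic against naive (2.40% of all genes) and 21 in peak against presymptomatic libraries (5.73%), and these members share reads. Of 37 separate stretches 2 and 3 had such a p in the same order, beside 2.36% and 5.64% of all genes and stretches tested. The causes were not tested.

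Without the 3 libraries of highest receptor share, beta medians were 0.51 in presymptomatic and -0.57 in onset against naive libraries. Values then changed sign in presymptomatic libraries for Pcdha1 (-0.0052), Pcdhga12 (-0.27) and the Pcdhgc3 to Pcdhgc4 stretch (-0.099). They did so in onset libraries for Pcdhga1 (-0.10), Pcdhga12 (-0.070), Pcdhb18 (-0.20) and that stretch (-0.027), and in peak libraries for Pcdha1 (-0.050), Pcdha3 (-0.057) and the beta stretch (-0.038). With limma-trend signs changed for Pcdhga1 in presymptomatic (0.057), Pcdhgc5 (0.036) and Pcdhb16 (0.085) in onset and Pcdhac1 (0.018) in peak libraries. With no filter all 22 beta genes entered and their medians were 0.21 in presymptomatic and 0.015 in peak libraries, and Pcdhga12 stood at -0.0042 in presymptomatic libraries. With a minimum count of 50 Pcdhga1 stood at 0.0043 in presymptomatic libraries. Without the libraries numbered 16 and 17, out of stage order in the labels, the presymptomatic beta median was 0.50, Pcdhga1 stood at 0.013 in presymptomatic and Pcdhgc5 at 0.0036 in onset libraries. That fit tested 39 members in place of 38, so its beta median rests on another set of beta genes. The causes were not tested. No beta gene was tested at a minimum count of 50, with counts halved, or with only the 2 groups compared.

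The labels do not say whether replicate numbers pair the libraries. Of 11 same-numbered pairs 4 had a correlation of deviations over 0.1, and all ran from -0.29 to 0.37. Pairs of unlike number were not compared, so these values cannot decide it. With the replicate number as a block, the call counts stayed 0, the gamma medians were 0.22 in presymptomatic and -0.046 in peak libraries, and signs changed for Pcdhga1 (0.25) and Pcdhgc5 (0.087) in presymptomatic, Pcdhgc5 (0.28) and Pcdhb16 (0.69) in onset and Pcdhac1 (0.044) in peak libraries.

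Leaving out 1 library at a time gave beta medians of -1.51 to 1.81 in presymptomatic, -0.26 to 0.70 in onset and -0.41 to 1.503 in peak against naive libraries. In the same order alpha medians were 0.14 to 0.37, 0.20 to 0.45 and -0.040 to 0.20, and gamma medians -0.19 to 0.20, 0.027 to 0.41 and -0.43 to -0.051. The beta genes that passed the filter differed between these fits, so the beta ranges do not follow a fixed set of genes. Where Pcdhb18 was tested it stayed at 2.01 to 3.05 in presymptomatic libraries. Among single genes and stretches, ranges that crossed 0 in peak libraries were -0.00093 to 0.24 for Pcdha1, -0.0031 to 0.24 for Pcdha3, -0.21 to 0.093 for Pcdhac1 and -0.036 to 0.24 for the beta stretch. In presymptomatic libraries they were -0.15 to 0.22 for Pcdhga1, -0.12 to 0.25 for Pcdhga12 and -0.35 to 0.064 for Pcdhgc5. In onset libraries they were -1.49 to 0.60 for Pcdhb16, -0.19 to 0.22 for Pcdhgc5 and -0.013 to 0.55 for the Pcdhgc3 to Pcdhgc4 stretch. The Pcdhac2 share of Pcdha1 reads differed from naive by -2.21 to 4.46, -1.29 to 5.38 and -5.80 to 0.872 percentage points from presymptomatic to peak. The Pcdhgc3 share of Pcdhga1 reads differed by -1.31 to 2.07, -2.93 to 2.12 and -4.63 to -1.24 points.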
